A study of Homo sapiens with 8 samples.

Results

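The heterogeneous nuclear ribonucleoproteins (HNRNPs) HNRNPA0, HNRNPA1, HNRNPA2B1, HNRNPA3, HNRNPC, HNRNPD, HNRNPF, HNRNPK, HNRNPM and HNRNPU were followed on 8 two-colour Agilent arrays of human cancer cell lines. The 10 genes were chosen by their levels in these data, because HNRNPA1 lay low on the miR-490-3p array and not on the miR-490-5p array, so the values of both miR-490 arrays are given as a description with no test. Their members are all probes that the array annotation names for these genes, 24 of 58201 probes, and 10 of 43317 gene names. All 24 probes were well above background, by the flag of the scanner software, in at least 1 channel on all 8 arrays.

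RNA of mock cells, which had no transfection, was labelled with Cy3, and RNA of the same line transfected with Lipofectamine RNAiMAX was labelled with Cy5 on every array. Mature miR-139-5p or miR-139-3p was transfected into A498 and 786-O, which are renal cancer lines (n = 2 arrays per strand, 1 per line). The siRNAs si-GINS1_1 and si-GINS1_2, which target the replication factor GINS1, were transfected into the breast cancer line MDA-MB-231 (n = 2 arrays, 1 per siRNA). The colorectal cancer line HCT116 received either strand of miR-490 (n = 1 array per strand, with no replicate). The mock cells received no control oligonucleotide, so effects of the reagent and of any small RNA are part of every ratio. The labels do not say whether both arrays of a line carried the same mock extract or whether cultures were separate, the replicates are cell lines or siRNAs, and p-values measure only the spread between these arrays.

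HNRNPs bind nascent transcripts in the nucleus, package them and steer splicing, export, stability and translation. The A/B members, HNRNPD, HNRNPC and HNRNPM bind RNA through RNA recognition motifs, HNRNPF through related motifs that hold G-rich runs, and HNRNPK through KH domains that hold C-rich runs. miRNAs guide Argonaute proteins to transcripts that pair with bases 2 to 8 of the miRNA, called the seed, and lower the level or the translation of these transcripts.

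The transfected miRNAs are shown because both strands of each duplex were compared and their seeds set which transcripts they can pair with. Mature sequences are from RefSeq on GRCh38.p14, 5′ to 3′, with the seed in capitals. The miR-490 strands come from chromosome 7 (chr7:136903242-136903263 for miR-490-3p and chr7:136903205-136903224 for miR-490-5p, + strand) and the miR-139 strands from chromosome 11 (chr11:72615066-72615088 for miR-139-3p and chr11:72615102-72615124 for miR-139-5p, minus strand).
hsa-miR-490-3p: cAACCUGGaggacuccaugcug
hsa-miR-490-5p: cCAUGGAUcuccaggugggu
hsa-miR-139-3p: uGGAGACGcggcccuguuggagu
hsa-miR-139-5p: uCUACAGUgcacgugucuccagu
No seed was shared among these 4 miRNAs. The letters that pair with the seed of miR-490-3p, CCAGGTT, were in 0 of the 24 member probes and in 0.39% of all probes (0.902% on either strand). Those of miR-490-5p (ATCCATG), miR-139-3p (CGTCTCC) and miR-139-5p (ACTGTAG) were also in 0 of 24, against 0.448%, 0.168% and 0.32% of all probes, and on the other strand the member probes held none of them either. A probe covers only 60 bases of a transcript, so this says only that the letters are not in these windows.

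HNRNPA1, which represses splice sites and shuttles between nucleus and cytoplasm, has 3 probes, and the first 30 bases of its 2 brighter probes are shown because these did not move alike. Coordinates were taken from the annotation of the array (hg19, + strand), and whether a probe lies in a coding or untranslated exon is not given in the sources used here. The brightest probe starts at base 1672 of NM_031157 (chr12:54678778-54678837) and the next at base 4036 of ENST00000546500 (chr12:54680787-54680846).
HNRNPA1, base 1672: cctgcttgggtggagaagccattgtctttg
HNRNPA1, base 4036: gccatgcagtttacatgagctgttctgcag
HNRNPA1L2 is a copy of HNRNPA1, and the annotation lists HNRNPA1 transcripts for its 2 brighter probes, so their signal cannot be assigned to the copy rather than to HNRNPA1.

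The values are log2 ratios of transfected over mock signal, after background correction and a within-array loess fit that brings the ratio of most probes to 0 at each brightness. Between 24980 and 29685 probes were well above background on an array, and median spot signals lay between 19.81 and 25.02. GINS1 itself lay at -1.31 with si-GINS1_1 and -1.92 with si-GINS1_2, and between -0.11 and 0.55 on the other arrays. In mock cells the renal markers PAX8, PAX2 and LHX1 were well above background in both renal lines. PAX8 and LHX1 also passed in MDA-MB-231 and HCT116, and PAX2 in HCT116, so the flag does not separate the lines. The log2 Cy3 signal of PAX8 was 8.13 in A498 and 8.05 in 786-O, against 6.71 in MDA-MB-231 and 6.31 in HCT116. In the same order LHX1 had 9.55, 10.6, 5.99 and 6.48, and PAX2 had 8.36, 7.8, 5.7 and 6.88. Of the colorectal markers EPCAM, CDH1 and CDX2 were well above background in HCT116, but VIL1 was not on either HCT116 array and KRT20 only on 1. EPCAM also passed in the other lines and CDH1 in MDA-MB-231, at lower levels than in HCT116. Of the breast markers GATA3 and ESR1 were so in MDA-MB-231, ESR1 at 5.99 and also in the other lines, while KRT5 and KRT14 were not. GATA3 also passed in 786-O and on 1 A498 array. Of the blood cell markers HBB was not above background in any line, while PTPRC (log2 Cy3 signal 6.03 to 6.15 over the lines) passed in all 4 and CD3E (5.83 to 6.21) in the renal lines, both close to the dimmest marker, KRT5 in MDA-MB-231 at 5.72.

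With miR-490-3p the brightest HNRNPA1 probe lay at -1.67, the lowest value of any member probe on the HCT116 arrays, and with miR-490-5p it lay at -0.21. Before any correction its spot signal on the miR-490-3p array was 12697 in the Cy3 channel (mock) and 5385 in the Cy5 channel (transfected), and on the miR-490-5p array 13079 and 13658. The mock signals were alike, so the low ratio came with a low transfected signal, and the strand difference, miR-490-3p minus miR-490-5p, was -1.46. The dimmest HNRNPA1 probe lay at -1.20 and -0.45 on the same arrays, a difference of -0.75. The probe at base 4036 lay at -0.41 and -0.20, a difference of only -0.21, so the probes of the gene disagreed in size while all were lower with miR-490-3p. The HNRNPA1L2 probes, from the dimmest to the brightest, lay at -1.35, -1.55 and -1.63 with miR-490-3p, whereas the miR-490-5p array gave -0.48, -0.65 and -0.50. The copy therefore followed the 2 lower HNRNPA1 probes. At its 2 brighter probes transcripts of the gene and of the copy cannot be told apart. The annotation lists no HNRNPA1 transcript for its dimmest probe.

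**Figure D1:**
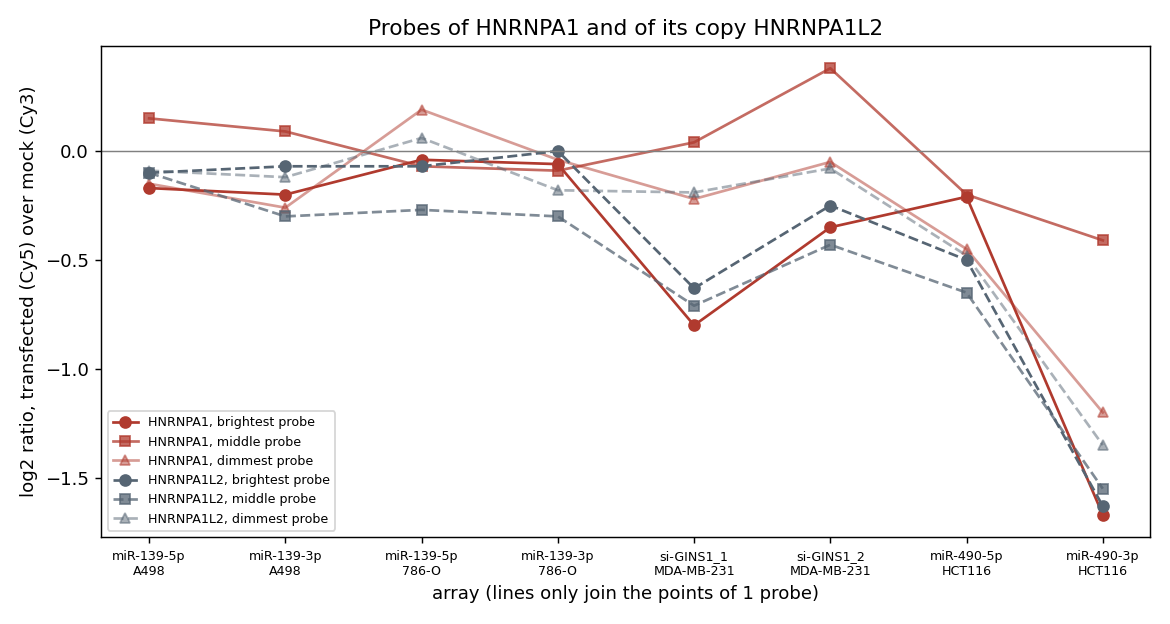
The y axis gives the log2 ratio of transfected over mock signal and the x axis the 8 arrays, for the 3 probes of HNRNPA1 (solid red) and the 3 of HNRNPA1L2 (dashed grey), each point 1 array. On the miR-490-3p array 5 of the 6 probes lay between -1.67 and -1.20 and the HNRNPA1 probe of middle brightness, at base 4036, lay at -0.41.

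On the other arrays the brightest HNRNPA1 probe was below 0 throughout. It lay at -0.17 and -0.20 with miR-139-5p and miR-139-3p in A498, at -0.04 and -0.06 in 786-O, and at -0.80 and -0.35 with si-GINS1_1 and si-GINS1_2. Since no array had its dyes swapped, a constant difference in dye uptake of a probe cannot be told apart from a fall. With dye bias removed, that is after the mean ratio of the MDA-MB-231 and HCT116 arrays was subtracted, the HNRNPA1 means with miR-139-5p and miR-139-3p turned to 0.65 and 0.62, a subtraction that includes the miR-490-3p value. The other probes did not keep 1 side of 0, as the dimmest lay at 0.19 in 786-O cells given miR-139-5p, and that at base 4036 at 0.38 with si-GINS1_2.

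The genes whose log2 ratios over the 8 arrays were most like those of the brightest HNRNPA1 probe, among 16398 genes, were HMGB1 (r = 0.974), HNRNPA1L2 (0.965), lnc-N4BP2-1 (0.964), RABGGTB (0.961) and MBOAT1 (0.960). HMGB1, a chromatin protein that bends DNA, was at -1.73 on the miR-490-3p array and -0.17 on the miR-490-5p array. RABGGTB, a subunit of the enzyme that attaches lipid anchors to Rab proteins, lay at -0.81 and -0.07. These likenesses are descriptions over arrays that share lines and possibly mocks. Without the miR-490-3p array r was 0.878 for HMGB1, 0.808 for HNRNPA1L2, 0.858 for lnc-N4BP2-1, 0.912 for RABGGTB and 0.808 for MBOAT1. Among the members themselves HNRNPA0 was the most like HNRNPA1 over 8 arrays, at only 0.538, and without the miR-490-3p array HNRNPC (0.947) and HNRNPK (0.940) were. Without that array, HNRNPC (-1.24), HNRNPK (-1.42) and HNRNPA1 (-0.80) each had their lowest value with si-GINS1_1. How far these 2 r values rest on the si-GINS1_1 array was not tested.

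On the HCT116 arrays a log2 ratio at or past 1 in either direction was counted, with each gene represented by its brightest probe. HNRNPA1 was the only member past it with miR-490-3p, against 1.07% of 21958 genes, and 0 members were with miR-490-5p, against 1.38% of 21618 genes. For the strand difference HNRNPA1 was again the only one, against 1.28% of 20850 genes. Nothing is read from these counts, as the same arrays chose the genes. The members had a median of 0.17 on the miR-490-3p array and 0.06 on the miR-490-5p array, and that of all genes was 0.01 on each.

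The members nearest to HNRNPA1 in sequence took other values. HNRNPA0, which binds AU-rich elements, was at -0.50 on the miR-490-3p array and 0.09 on the miR-490-5p array, and its dimmer probe at -0.02 and -0.28 in that order. HNRNPA2B1, which sorts and packages RNA, lay at 0.38 and 0.23. Its second probe lay at 0.25 and 0.31, the other way round, and its dimmest at 0 and -0.08. HNRNPA3 lay at 0.84 with miR-490-3p, the highest of the brightest probes, against 0.02 on the other strand's array. Its 4 dimmer probes lay between -0.35 and 0.19 with miR-490-3p, and between -0.42 and -0.34 on the other array. A value as high as 0.84 therefore belonged to 1 probe. The strand difference was above 0 for each HNRNPA3 probe, from 0.06 at base 5042 to 0.82 at the brightest.

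The HNRNPA3 probes at base 240 of NM_194247 were annotated to the same place (chr2:178080329-178080388, hg19, + strand). They are shown because they agree in all but a few bases and give a measure of agreement between probes, and capitals mark where they differ.
HNRNPA3, brighter: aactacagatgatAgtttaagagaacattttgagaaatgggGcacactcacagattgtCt
HNRNPA3, dimmer: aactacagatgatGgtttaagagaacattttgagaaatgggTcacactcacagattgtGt
The 3 differences, written from the brighter to the dimmer and counted from the 5′ end, are A14G, G42T and C59G. With miR-490-3p the brighter probe lay at 0.14 and the dimmer at 0.05, and with miR-490-5p they lay at -0.42 and -0.34. Over all 8 arrays the brighter lay between -0.52 and 0.14 and the dimmer between -0.49 and 0.15.

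Of the remaining members, HNRNPK, which binds C-rich RNA and DNA, was at 0.55 on the miR-490-3p array and 0.17 on the miR-490-5p array, while its dimmer probe lay at -0.06 and -0.02, again in that order. HNRNPU, which ties chromatin to the nuclear matrix and binds RNA, lay at 0.07 and -0.39, and the dimmer of its probes, which starts at base 5770 of NM_031844, at 0.91 and -0.23. HNRNPC, which binds U-rich runs of nascent RNA, lay at 0.26 and 0.10, its probe at base 1036 at -0.53 and -0.52, and its probe at base 3120 at 0.59 and 0.52. The HNRNPC probe at base 1036 of NM_031314 was placed by the annotation on chromosome 2 (chr2:190788815-190788876), whereas the others lie on chromosome 14, so a copy of the gene may share its signal. It was below 0 on all 8 arrays, between -0.55 and -0.11. A probe of HNRNPCL1, a copy of HNRNPC, lay between -0.41 and 0.10 over the arrays, and the 2 probes of HNRNPU-AS1, the antisense neighbour of HNRNPU, between -0.27 and 0.12. Median centring in place of loess gave HNRNPA1 at -1.25, HNRNPA3 at 1.25, which is past the size rule, and HNRNPK at 0.90 with miR-490-3p.

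HNRNPM, a splicing regulator that binds GU-rich RNA, lay at 0.30 and 0.44. HNRNPF, which binds G-runs beside exons, lay at -0.02 and -0.32. HNRNPD, also known as AUF1, which directs the decay of AU-rich transcripts, lay at -0.18 and -0.45 with its brightest probe and at 0.55 and 0.06 with the other.

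**Figure D2:**
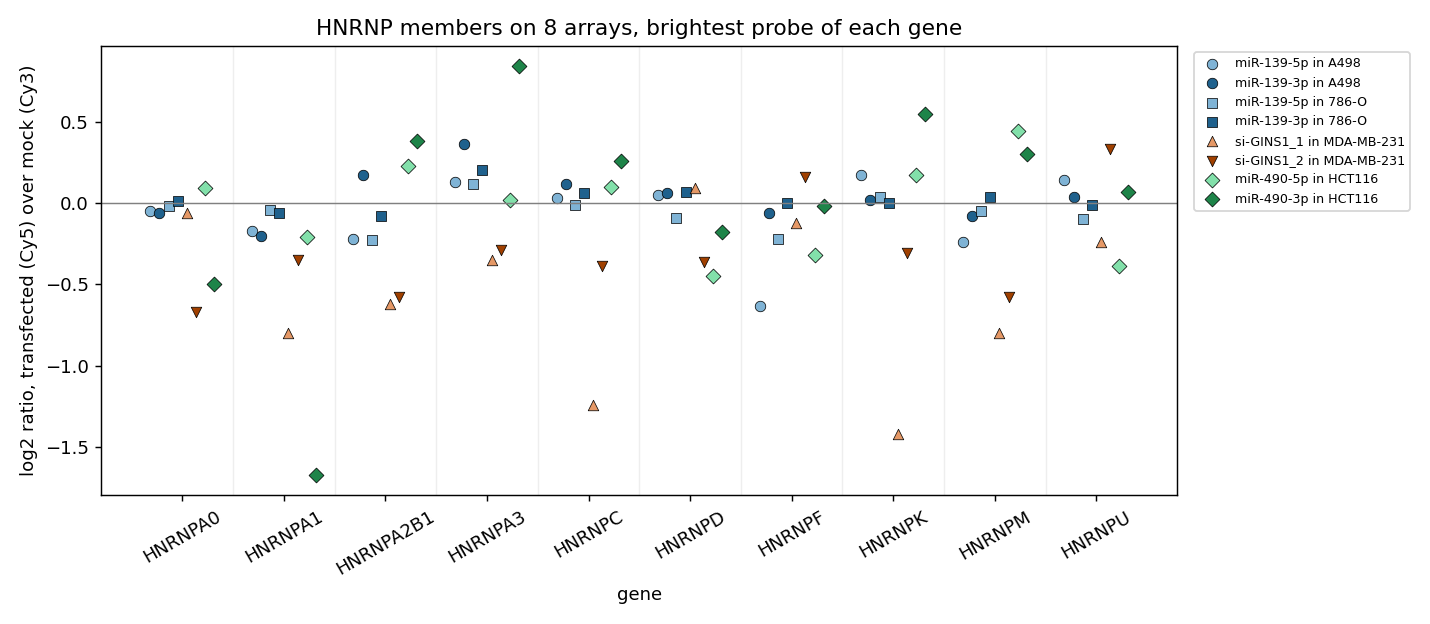
The y axis gives the log2 ratio of transfected over mock signal of the brightest probe of each gene, with 1 point per array and the genes on the x axis. HNRNPA1 at -1.67 on the miR-490-3p array is the lowest point, HNRNPK at -1.42 with si-GINS1_1 the next, and the miR-139 points lie between -0.63 and 0.36.

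MDA-MB-231 cells with GINS1 lowered were compared with their mock, a comparison the members were not chosen on. HNRNPA2B1, HNRNPA3 and HNRNPM passed limma's test at an adjusted p under 0.05 and were lower, which is 3 of 10 members against 7.38% of 21432 genes in either direction and 3.84% lower. Of the member probes 10 of 24 passed, all lower, against 6.96% of 27803 probes. The median of the members was -0.47 and that of all genes 0.01. The size of the difference from mock, and for some members its direction, depended on the normalization, and the cause of this was not tested. Under median centring the median of the members was -0.02 against 0.14 for all genes, and of the members only HNRNPF passed, higher at 0.38 (limma adjusted p = 0.0395). The count was also 0 in a limma fit of these 2 arrays alone, with a variance trend and by the scanner log ratio, while 6 of 10 members and 5728 of 21432 genes had an unadjusted p under 0.05 in the limma fit of all 8 arrays. Leaving out 1 siRNA leaves a lone array with no spread of its own, so only effect sizes are given here. The median of the members was -0.36 without si-GINS1_1 and -0.48 without si-GINS1_2, against 0.01 for all genes in each.

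HNRNPM lay at -0.80 with si-GINS1_1 and -0.58 with si-GINS1_2. Its mean was -0.69 ± 0.15 (SD, n = 2; SE 0.08), with a limma adjusted p of 0.0231. Each SD is that of the 2 arrays named. Each SE and limma p instead uses the spread pooled in the fit of all 8 arrays. HNRNPA2B1 lay at -0.62 and -0.58, almost the same with either siRNA. Its mean was -0.60 ± 0.03 (SD, n = 2; SE 0.07), with a limma adjusted p of 0.0229, and its second probe lay at -0.44 ± 0.07 (limma adjusted p = 0.0356). The last HNRNPA2B1 probe, the dimmest of all 24, lay at -0.06 ± 0.01 and did not pass (limma adjusted p = 0.463).

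HNRNPA3 lay at -0.35 and -0.29, with a mean of -0.32 ± 0.04 (SD, n = 2; SE 0.06; limma adjusted p = 0.0428). It did not pass without background correction (limma adjusted p = 0.0747) or with an offset of 10 (limma adjusted p = 0.096). All 5 of its probes were below 0 on both arrays. Both probes at base 240 passed, at -0.46 ± 0.09 (limma adjusted p = 0.0212) and -0.43 ± 0.08 (limma adjusted p = 0.0229), while those at bases 5042 and 2828 did not, at -0.25 ± 0.13 and -0.40 ± 0.45. Under median centring HNRNPA3 lay at 0.21, HNRNPA2B1 at -0.10 and HNRNPM at -0.26, and none of these passed.

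HNRNPA1 lay at -0.80 and -0.35, with a mean of -0.57 ± 0.31 (SD, n = 2; SE 0.12), and missed the threshold (limma adjusted p = 0.0581). Its dimmest probe lay at -0.13 ± 0.12 and that at base 4036 at 0.21 ± 0.24, neither past the test. HNRNPA0 lay at -0.06 with si-GINS1_1 and -0.67 with si-GINS1_2, and did not pass at a mean of -0.36 ± 0.43, while its dimmer probe at -0.32 and -0.33 did (limma adjusted p = 0.0264).

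Among the brightest probes the siRNAs differed most for HNRNPK and HNRNPC. HNRNPK lay at -1.42 with si-GINS1_1 and -0.31 with si-GINS1_2, a mean of -0.87 ± 0.78 (limma adjusted p = 0.12), while its dimmer probe gave -0.21 and -0.02. HNRNPC lay at -1.24 and -0.39, a mean of -0.81 ± 0.60 (limma adjusted p = 0.0815). Neither mean passed the test. The dimmer HNRNPC probes did pass, at -0.53 ± 0.02 for base 1036 (limma adjusted p = 0.0151) and -1.40 ± 0.63 for base 3120 (limma adjusted p = 0.0335). The latter was lower with si-GINS1_2 (-1.85) than with si-GINS1_1 (-0.95), the reverse of the brightest probe, and the difference of the siRNAs was not tested, with 1 array each.

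HNRNPU lay at -0.24 and 0.33, on opposite sides of 0, with a mean of 0.05 ± 0.40 (limma adjusted p = 0.878). Its second probe lay at -0.68 and -1.09 and passed at -0.88 ± 0.29 (limma adjusted p = 0.0295). HNRNPD lay at 0.09 and -0.36 (dimmer probe 0.15 and -0.91), and HNRNPF at -0.12 and 0.16. None of these 3 genes passed with its brightest probe, and HNRNPD was high with si-GINS1_1 and low with si-GINS1_2 in both of its probes.

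**Figure D3:**
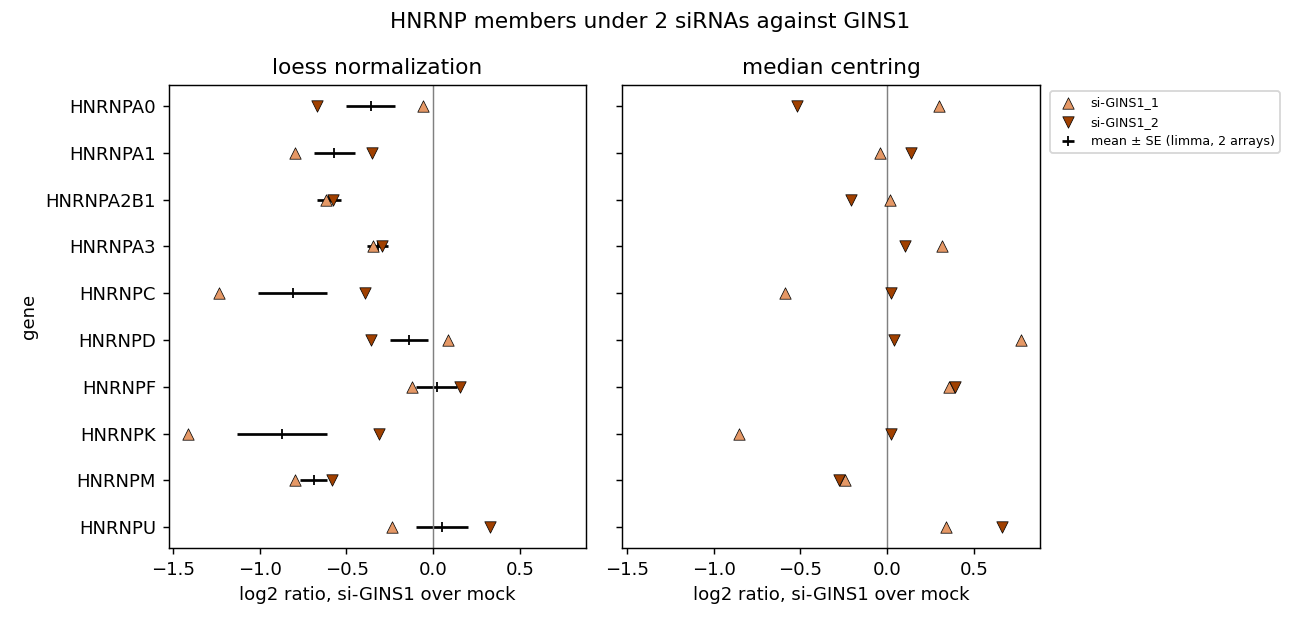
The x axes give the log2 ratio of si-GINS1 over mock for the brightest probe of each member after loess (left) and after median centring (right), with 1 triangle per siRNA array, and bars on the left for the limma mean and SE over 2 arrays. After loess 7 of 10 members lay below 0 with both siRNAs, and after median centring 1 did, HNRNPM.

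The same test was read for splicing proteins outside the 10 genes, whose lists were also set with earlier results of these data known. Over all 21432 genes 3.84% were lower and 7.38% passed in either direction, with a median of 0.01. Of 24 other HNRNP and related RNA-binding proteins 3 were lower and 0 higher, with a median of -0.20. These were KHDRBS1 (Sam68, a splicing regulator that responds to signalling) at -0.70 (limma adjusted p = 0.0239), HNRNPLL at -0.55 (limma adjusted p = 0.0229) and HNRNPH1 at -0.54 (limma adjusted p = 0.0249). Of 12 SR proteins, which promote exon inclusion, 5 were lower and 0 higher, with a median of -0.39. The furthest from 0 were SRSF6 at -0.58, SRSF3 at -0.50, SRSF7 at -0.46 and TRA2B at -0.42, with limma adjusted p between 0.0305 and 0.0441. Of 16 core splicing, import and arginine methylation factors tested, 0 were lower and 2 higher, the import receptor TNPO2 at 0.71 (limma adjusted p = 0.0281) and the methyltransferase PRMT5 at 0.43 (limma adjusted p = 0.0302).

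Under median centring 0 genes of these 3 lists were lower, and SRSF3 lay at 0.05 and KHDRBS1 at -0.24. Of the 24 other HNRNP and related proteins 2 were higher there, with a median of 0.18 against 0.14 for all genes. Over all genes 2450 of 21432 passed in either direction under that setting. TNPO2 and PRMT5 of the core list also remained higher under it, at 1.21 and 0.84. By the scanner log ratio 0 genes of the lists passed. Without background correction and with an offset of 10, PRMT5 did not pass (limma adjusted p = 0.0687 and 0.0865), nor did TRA2B (limma adjusted p = 0.0512 and 0.0615), and 3 SR proteins were lower. With miR-490-3p the poly(C)-binding proteins PCBP2 and PCBP1, which carry KH domains as HNRNPK does, lay at -1.64 and -1.28, against -1.21 and -0.74 on the miR-490-5p array. They were the only genes of the 3 lists at or past 1 with miR-490-3p, and PCBP2 the only one with miR-490-5p. For the strand difference SF3B3, a subunit of the U2 particle, was the only one, at 1.07.

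miR-139 was compared with mock over both renal lines, to ask what each strand lowers. With miR-139-5p 0 of 10 members passed, against 0.0164% of 18344 genes, and 2 members and 516 genes had an unadjusted p under 0.05. With miR-139-3p 0 of 10 passed, against 0% of 18031 genes, and 1 member and 881 genes had an unadjusted p under 0.05. The contrast of miR-139-3p minus miR-139-5p gave 0 of 10 against 0% of 17564 genes, and 0 members and 123 genes had an unadjusted p under 0.05. Every adjusted p of the members in these limma fits was 1, so no change of a member was detected, with 2 arrays per strand.

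HNRNPF was the furthest from 0, at -0.63 in A498 and -0.22 in 786-O with miR-139-5p (mean -0.42 ± 0.29, SD, n = 2; SE 0.12), and at -0.06 and 0.00 with miR-139-3p. The brightest HNRNPA2B1 probe lay at -0.22 and -0.23 with miR-139-5p and at 0.17 and -0.08 with miR-139-3p. At this probe only the miR-139-5p values were alike in both lines. The second HNRNPA2B1 probe lay at -0.20 in A498 and -0.01 in 786-O with miR-139-5p, so it did not share this likeness. With miR-139-3p it lay at 0.16 and 0.03. HNRNPA3 was above 0 on all 4 arrays, at 0.13 and 0.12 with miR-139-5p and at 0.36 and 0.20 with miR-139-3p. Its mean with miR-139-3p was 0.28 ± 0.11 (SD, n = 2; SE 0.06), while of its probes at base 240 the brighter lay at -0.02 and -0.01 and the dimmer at 0.15 and 0.10 there. The brightest probes of the other 7 members lay between -0.24 (HNRNPM) and 0.17 (HNRNPK), both in A498 with miR-139-5p, and the dimmer HNRNPU probe at -0.35 there. The medians of the 10 members on these 4 arrays lay between -0.04 and 0.03, beside 0.00 to 0.01 for all genes. None of the splicing lists had a gene past the test for either strand.

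The mock channel gives the level of each member in untreated cells, on the log2 scale after quantile normalization of the Cy3 channels. As both Cy3 channels of a line may be 1 extract, a line counts as 1 sample and no test was run. Channels of a line differed by at most 0.19 for the brightest probes of the members. The members were lower in A498 than in the other lines. The median difference was 0.65 for 786-O, 0.62 for MDA-MB-231 and 0.72 for HCT116, each minus A498, with 9, 10 and 10 of 10 members above 0. All genes had medians of 0.03, 0.01 and 0.04 there, with 53.9%, 51.4% and 53.7% above 0. Among 786-O, MDA-MB-231 and HCT116 the median differences were at most 0.10.

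HNRNPA1 had a log2 Cy3 level of 11.58 in A498, 12.32 in 786-O, and then 12.95 (MDA-MB-231) and 13.00 (HCT116), and the latter 2 did not differ beyond the gap between channels (0.07). HNRNPA3 had the order A498 (10.18), MDA-MB-231 (11.27), 786-O (11.32) and HCT116 (11.86), with the middle lines closer than the channel gap of 786-O (0.08). HNRNPA0 had the order A498 (6.68), 786-O (7.25), MDA-MB-231 (7.28) and HCT116 (8.09), again with the middle lines closer than the channel gap of 786-O (0.04). These A/B members shared A498 as the lowest and HCT116 as the highest line. HNRNPA2B1 did not, with 10.03 in A498, 10.68 in HCT116, 10.92 in MDA-MB-231 and 11.02 in 786-O.

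HNRNPC and HNRNPD were lowest in A498 (10.90 and 10.54) and lay between 11.30 and 11.69 in the other lines. The remaining members varied little. The range over lines was 0.23 for HNRNPK, 0.23 for HNRNPU, 0.26 for HNRNPF and 0.31 for HNRNPM. Their dimmer probes could order the lines otherwise, as the second HNRNPU probe had 8.24 in MDA-MB-231 and 6.98 in HCT116. The size of these differences rests on the normalization. With median centring of the Cy3 channels the median of the members was 1.58 higher in HCT116 than in A498, and 0.98 higher than in 786-O in place of 0.10.

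**Figure D4:**
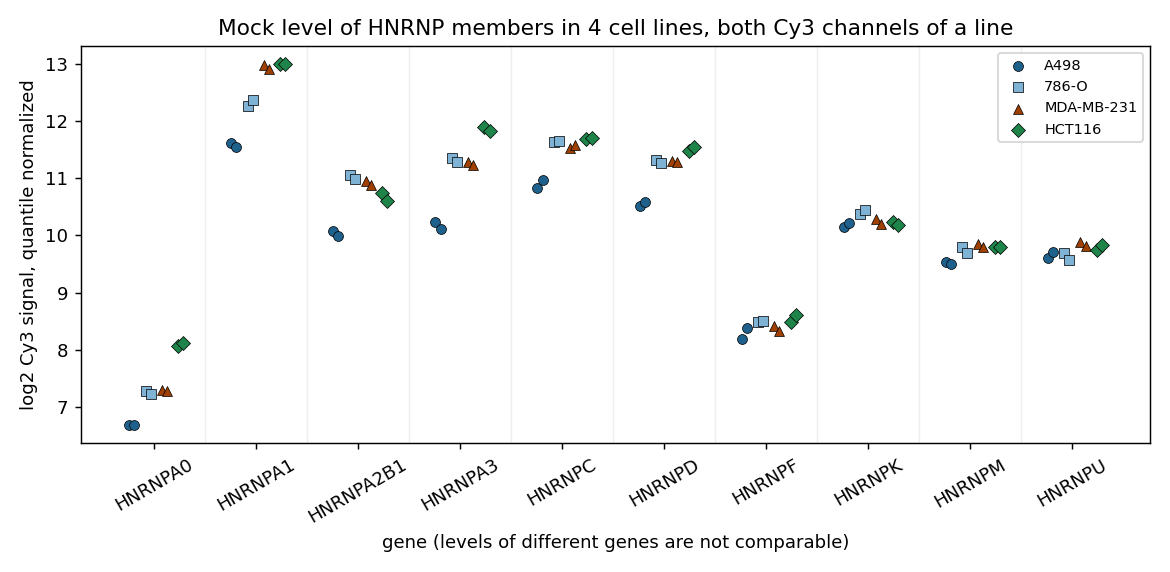
The y axis gives the quantile-normalized log2 Cy3 signal of mock cells for the brightest probe of each member, with a point for each of the 2 channels of a line. The levels of HNRNPA1 run from 11.58 in A498 to 13.00 in HCT116, while those of HNRNPK and HNRNPU span 0.23, and levels of different genes are not comparable.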

How the data were processed

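RNA was labelled with the Agilent two-color low input linear amplification protocol. Per the file headers, the authors used Agilent Feature Extraction 11.5.1.1. The deposited intensity columns are the mean spot signal and median local background of each channel, not normalized, and the deposited log10 ratio of Cy5 over Cy3 is corrected by that software. The value table of the series held those log10 ratios as well (largest difference 0). Each array had 62976 spots, 2075 of them controls, and 169 to 272 flagged spots were left out; 0 were saturated.

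Spot signals were background-corrected by normexp (offset 50), which pulls dim ratios toward 0, and ratios were normalized by loess without controls (limma 3.58.1, R 4.3.3). Spots of a probe were averaged. A gene was represented by the probe with the highest mean intensity. The 8 arrays were fitted in a single limma model of 5 groups. Probes that were well above background on every array of a comparison, in either channel, were tested against 0 and adjusted by Benjamini-Hochberg over all of them, with a threshold of 0.05. Correctness was tested on simulated data. Testing a ratio against 0 ignores how mock cells vary. Array number limits precision. The arrays of a line paired the miR-139 strands, and the deviations of these arrays correlated at 0.0753 (22178 probes). The members and gene lists were chosen with earlier results of these data known. Named were every member probe, up to 4 genes per list and comparison that passed and were furthest from 0, and the 5 genes most like HNRNPA1. Scripts used the R package data.table (version 1.17.8), Python 3.11.15, pandas 2.3.3, numpy 2.4.6 and matplotlib 3.10.9. Some probe sequences and 1 marker gene are not reported here.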

Additional observations from a re-analysis of the deposited data

Results flagged for a closer look

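HNRNPU was singled out because its brightest probe lay above 0 on the A498 arrays of miR-139-5p (0.14) and miR-139-3p (0.04), whereas in 786-O it lay at -0.10 and -0.01. The mean of the A498 arrays exceeded that of the 786-O arrays by 0.14 log2 units, and the difference was not tested. The second HNRNPU probe was below 0 on all 4 arrays, between -0.35 and -0.03.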

How the results depend on the processing

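The 3 members lower with si-GINS1 were 0 in a limma fit of these 2 arrays alone, 0 when eBayes used a robust variance trend and 0 by the scanner log ratio. It was 2 without background correction and 2 with a normexp offset of 10, where HNRNPA3 did not pass. The count was 1 under median centring (HNRNPF, higher), 5 by the median of all probes of a gene and 7 with the cell line as a random block. Leaving out 1 array gave 6 to 8. Each fit with 1 array left out rests on a lone si-GINS1 array with no spread of its own, so nothing is read from its count. More of all genes passed in these fits too. The block correlation was -0.672, and both si-GINS1 arrays are 1 group and 1 block. Why it was negative was not tested. Over all genes the same test called 1582, and 62 by the scanner log ratio, 0 from these arrays alone and 0 with a trend. It called 8286 with the block, 2450 under median centring and 445 with dye bias removed. The cause of these changes in the counts was not tested.

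Of 540 tested member values under alternatives 491 kept their side of 0 and 49 did not. Under median centring these were, with miR-139-5p, HNRNPA0 0.028, HNRNPA1 0.16, HNRNPD 0.21 and HNRNPM 0.041, with miR-139-3p, HNRNPA0 0.040, HNRNPA1 0.11, HNRNPF 0.086 and HNRNPM 0.14, and with si-GINS1, HNRNPA1 0.050, HNRNPA3 0.21 and HNRNPD 0.41. With dye bias removed they were, with miR-139-5p, HNRNPA0 0.24, HNRNPA1 0.65, HNRNPD 0.20 and HNRNPM 0.017, and with miR-139-3p, HNRNPA0 0.26, HNRNPA1 0.62, HNRNPF 0.042 and HNRNPM 0.14. By the median of all probes they were, with miR-139-5p, HNRNPA3 -0.014, HNRNPK -0.029 and HNRNPU -0.085, with miR-139-3p, HNRNPC -0.0079, HNRNPD -0.063, HNRNPK -0.061 and HNRNPU -0.040, for the strand contrast, HNRNPC -0.013 and HNRNPU 0.045, and with si-GINS1, HNRNPU -0.42. HNRNPF with si-GINS1 lay at -0.027 without background correction, -0.031 with an offset of 10 and -0.023 by the scanner log ratio.

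Leaving out 1 array gave, with si-GINS1, HNRNPD -0.36 to 0.088, HNRNPF -0.12 to 0.16 and HNRNPU -0.24 to 0.33. With miR-139-5p it gave HNRNPC -0.0075 to 0.032, HNRNPD -0.092 to 0.048 and HNRNPU -0.097 to 0.14. With miR-139-3p it gave HNRNPA0 -0.057 to 0.0079, HNRNPA2B1 -0.077 to 0.17, HNRNPK -0.0021 to 0.023, HNRNPM -0.079 to 0.041 and HNRNPU -0.0059 to 0.037. The strand contrast ranged for HNRNPA0 from -0.018 to 0.047, for HNRNPA1 from -0.098 to 0.041 and for HNRNPU from -0.12 to 0.11. The strand contrast with the cell line as a replicate block also had 0 members past limma's test, and this pairing changed no other call.

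With miR-490-3p 2 members were past the size rule under median centring, against 323 of 21958 genes, and 3 at a size of 0.5, against 1692 genes. For the miR-490 strand difference 3 were at a size of 0.5, against 2401 of 20850 genes, and 0 by the median of all probes, against 205 genes. These arrays chose the members, so the counts are only a description. Median Cy3 differences of the members under median centring were 0.55 for 786-O minus A498, 1.46 for MDA-MB-231 minus A498, 1.58 for HCT116 minus A498, 0.996 for MDA-MB-231 minus 786-O and 0.98 for HCT116 minus 786-O. Without background correction they were 0.76 for 786-O minus A498 and 0.72 for MDA-MB-231 minus A498. The cause was not tested. The filters on dim probes changed no member value, since all 24 probes passed them, and with no dye swap and 2 arrays or fewer per group small differences were not detectable.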
